A study of Mus musculus with 35 samples.

Results

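The single cells described here were sorted from wild-type E14.5 mouse brain through the mural gate, which took cells with high PDGFRb and low PECAM1 staining and without CD45 or CD41. They were chosen by that gate and by depth alone. Of 295 wells that received a mural gate cell on plates 1 to 3, the 210 with more than 1500 transcripts were kept, among 686 kept wells of the 4 gates. The other gates of the same plates served as reference and held 123 neural, 225 endothelial and 128 microglia wells, all from the same wild-type stage with no treatment. Whether each plate came from its own brain is not given in the labels, so a p-value below measures only the spread between plates. Each cell was sequenced with mCEL-Seq2, a method that primes at the 3′ end and counts transcripts by molecular identifiers.

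Mural cells wrap the outside of blood vessels. Pericytes sit on capillaries inside a basement membrane that they share with the endothelium, are recruited by PDGF-B from endothelial cells through PDGFRb, and in the brain help to form the blood-brain barrier. Vascular smooth muscle cells wrap arteries and larger vessels and contract through smooth muscle actin, myosin and their regulators. Brain mural cells are also known for an ATP-sensitive potassium channel, in which *Kcnj8* encodes the pore and *Abcc9* the sulfonylurea receptor subunit.

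The mural gate gave 95 kept wells of 113 on plate 1, 105 of 118 on plate 2 and 10 of 64 on plate 3. The kept share was 71.2% (exact 95% interval 65.7 to 76.3), and the intervals for shares here cover counting error only. Kept wells held a median of 6885 transcripts (1584 to 19502) from a median of 2600 genes, and the 85 wells left out a median of 188. The wells just inside the threshold had 1584, 1674 and 1746 transcripts, and those just outside it 1495, 1438 and 1416. Plate 3 therefore rests on few wells, all from 1 library, and on 72819 transcripts against 631667 and 846550. Over the 12 sums of a plate and gate, depth ran from 50756 to 959426 transcripts. Mural wells shared 2 libraries with microglia and 1 with 4 endothelial wells but none with neural wells, so gate and library are largely confounded. All 1056 well identifiers were distinct.

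The cells carried the genes that mark mural cells on every plate. *Rgs5*, a regulator of G protein signaling, was read at 6396, 6972 and 6152 CPM (transcripts scaled to a common total) in the mural sums of plates 1, 2 and 3. The endothelial sums held 315, 61.3 and 1767 CPM, and no sum of the neural or microglia gate exceeded 57.6. The groups did not overlap, and the endothelial sum nearest to the mural range was that of plate 3. The log2 fold change was 5.94 (SE 0.41) against the mean of the other gates and 2.98 (SE 0.54) against the endothelial gate, with adjusted p = 7.81e-19 and 1.15e-05 in edgeR's quasi-likelihood test with Benjamini-Hochberg adjustment. Genes with an adjusted p under 0.05 in this test are called below.

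The endothelial gate itself held 5 wells that carried the mural lists, and its plate 3 sum rests on 13 wells. With wells of another population left out of all 4 gates, a setting added once the data had been seen, the difference of *Rgs5* from the endothelial gate was 6.10 on the log2 scale. *Rgs5* is in the pericyte list that assigned the wells, so leaving them out had to enlarge this difference, and the value only shows how far those wells moved it. Without plate 3 it was 5.03. In the 1 library that held both gates, on plate 3, *Rgs5* stood at 6156 CPM in 10 mural wells and 35.8 in 4 endothelial wells. The size of the contrast with endothelial cells thus moved with those wells and with plate 3.

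*Kcnj8* was read at 522, 670 and 481 CPM in the mural sums and at 17.7, 4.71 and 99.7 in the endothelial sums. *Cd248*, the gene of the surface protein endosialin, gave 739, 703 and 439 against 16.7, 1.57 and 85.5. *Vtn*, which encodes the matrix protein vitronectin, gave 1650, 1746 and 1263 against 63.6, 9.43 and 470. In each of these genes the lowest mural sum lay above the highest endothelial one. Their log2 fold changes against the endothelial gate were 4.90 (SE 0.40), 5.33 (SE 0.44) and 3.63 (SE 0.57). With wells of another population left out of all gates they were 7.67, 6.96 and 6.33, again an increase that the choice of wells fixed, since all 3 genes are in the pericyte list. Without plate 3 they were 5.50, 6.0 and 5.32. *Heyl*, a target of Notch signaling that is in no list used to assign wells, moved from 4.30 to 6.64 and 5.31.

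*Higd1b* encodes a mitochondrial protein and marks pericytes. It was read at 114, 129 and 13.7 CPM against 6.25, 4.71 and 85.5 in the endothelial sums, so on plate 3 the order was the other way round and the groups overlapped. Its difference from the endothelial gate, 3.35 (SE 0.49), was called with adjusted p = 1.74e-07 by edgeR's quasi-likelihood test. When wells of another population were left out of every gate it fell below the filter on low counts and was not tested. *Pdgfrb* encodes the protein by which the cells were sorted, so its 532, 567 and 481 CPM against 20.9, 4.71 and 171 only describe the sort.

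**Figure D1:**
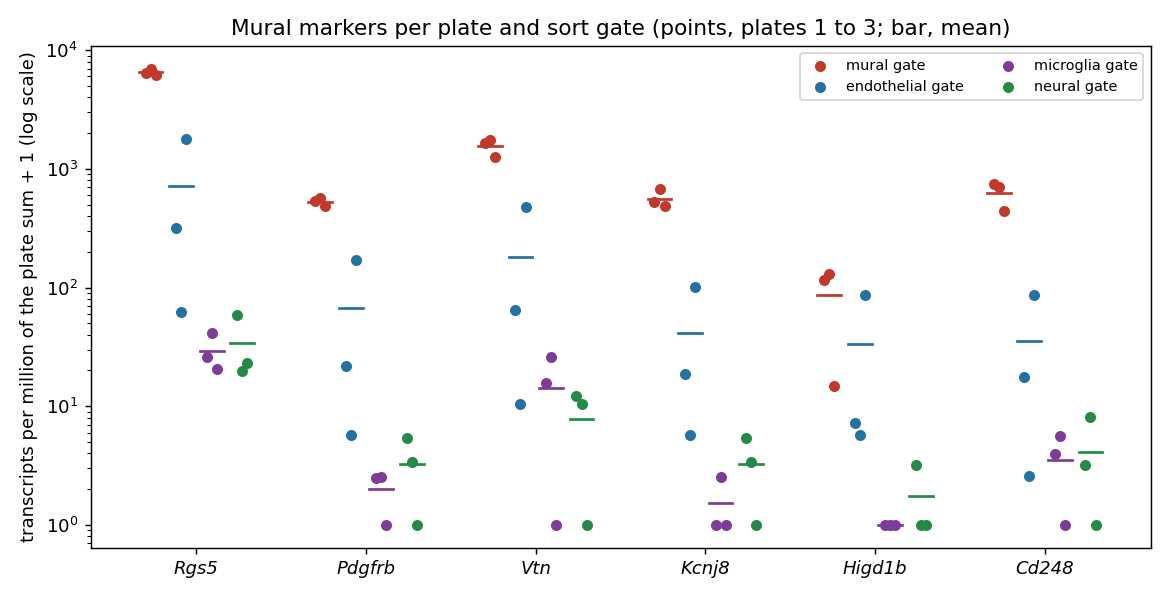
Level of the 6 mural markers in CPM of the plate sum plus 1, on a log axis, with 1 point for each of plates 1 to 3, a bar for the mean and a color for each sort gate. The mural points stand above all others except for *Higd1b*, where the plate 3 mural sum (13.7) lies below the endothelial one (85.5).

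*Rgs5*, *Kcnj8* and *Abcc9* were high together, so the 250 bases before their RefSeq start sites (GRCm38.p6) are shown, 5′ to 3′ on the gene's strand. *Rgs5* lies on chromosome 1 (169655501 to 169695813, plus strand). *Kcnj8* (142564837 to 142571614) and *Abcc9* (142587862 to 142702315) lie next to each other on chromosome 6, both on the minus strand. Both strands were searched for TGGGAA, the core that the Notch effector RBPJ is known to bind, and matches are in capitals.
Rgs5 promoter, chr1:169655251-169655500: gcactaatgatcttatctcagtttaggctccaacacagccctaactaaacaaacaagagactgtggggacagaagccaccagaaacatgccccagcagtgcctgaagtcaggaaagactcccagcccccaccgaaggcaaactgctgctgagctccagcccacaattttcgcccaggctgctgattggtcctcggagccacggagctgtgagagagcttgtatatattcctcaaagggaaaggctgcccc
Kcnj8 promoter, chr6:142571615-142571864: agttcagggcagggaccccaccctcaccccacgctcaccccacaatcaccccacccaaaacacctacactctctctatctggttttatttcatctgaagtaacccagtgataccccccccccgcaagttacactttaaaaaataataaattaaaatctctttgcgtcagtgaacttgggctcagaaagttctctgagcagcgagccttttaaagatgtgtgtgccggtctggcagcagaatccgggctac
Abcc9 promoter, chr6:142702275-142702524: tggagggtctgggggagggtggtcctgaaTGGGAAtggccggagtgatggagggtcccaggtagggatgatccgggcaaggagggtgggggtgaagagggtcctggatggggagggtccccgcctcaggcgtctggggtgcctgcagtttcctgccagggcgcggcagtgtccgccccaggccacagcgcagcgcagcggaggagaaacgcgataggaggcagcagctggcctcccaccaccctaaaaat
TGGGAA occurs once, in the *Abcc9* window, 221 bases before the start, and in 21.6% of 32851 RefSeq promoter windows of the same length. The GENCODE model of *Abcc9* begins inside this window.

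Most wells of the gate carried mural transcripts and a minority carried neural ones instead. Each well was assigned to the population whose marker lists had the highest mean log2 expression. By this rule 194 of 210 wells were mural-like, 15 (7.14%, exact 95% interval 4.05 to 11.5) were neural-like and 1 was microglia-like. The neural-like wells numbered 13 of 95 on plate 1, 2 of 105 on plate 2 and 0 of 10 on plate 3, and 9 of the 15 came from 1 library of plate 1. Clustering of all kept wells of the 4 gates placed the same 15 wells in neural clusters. These clusters were named by the same marker lists that assigned the wells.

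The 2 kinds of well did not overlap on the pericyte list. Its 16 genes summed to between 13.5 and 292 transcripts per 10000 in mural-like wells (median 155) and to between 0 and 10.95 in neural-like wells (median 3.65). In the neural gate they summed to at most 12.2. Since the pericyte and neural lists made the assignment, these values describe the wells and are no test. The microglia-like well, with 2135 transcripts, carried both profiles, with 56.2 pericyte and 32.8 microglia transcripts per 10000, so that its pericyte sum lay within the mural-like range.

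**Figure D2:**
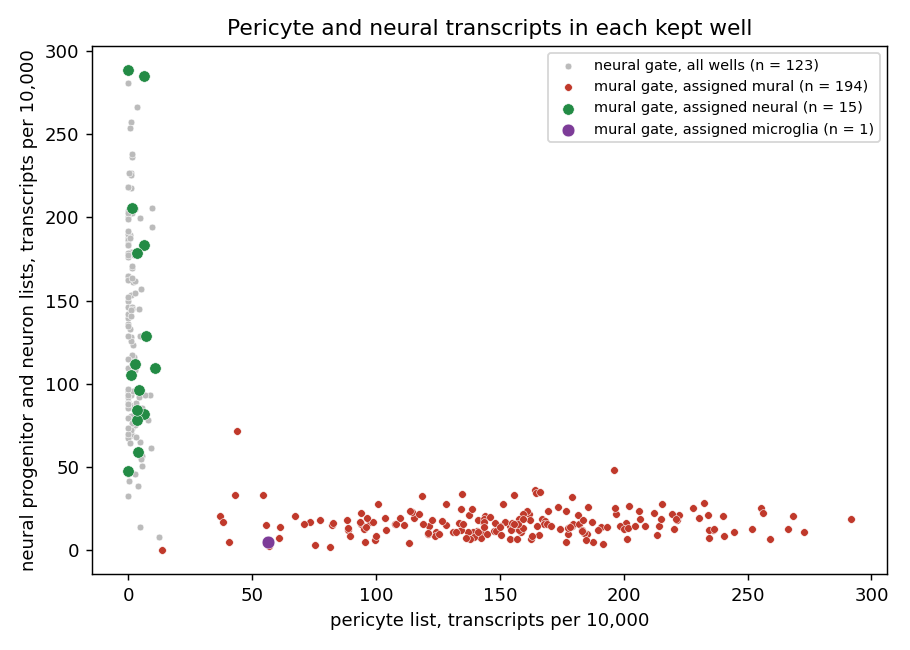
Transcripts per 10000 of the pericyte list (horizontal) and of the neural progenitor and neuron lists together (vertical), 1 point for each kept well of the mural and neural gates. The 194 mural-like wells reach 292 on the horizontal axis, and the 15 neural-like wells lie at or below 10.95, among the neural gate wells.

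In the neural-like wells of plate 1, progenitor genes outweighed neuron genes. The progenitor list, with *Sox2*, *Hes5* and *Fabp7*, genes active in radial glia, exceeded the neuron list in 10 of the 15 wells of both plates (66.7%, 38.4 to 88.2), against 23 of 123 wells of the neural gate (18.7%, 12.2 to 26.7). The medians were 68.97 progenitor and 28.9 neuron transcripts per 10000 in the 13 wells of plate 1, but 17.5 and 101 in the 2 wells of plate 2, and 6.57 and 129 in the neural gate. Both lists assigned the wells, so these values are a description and no test over plates was made. *Rgs5* was found in 7 of 15 of them (95.9 CPM in their sum) against 31 of 123 neural gate wells (37.3 CPM), with median depths of 6295 and 7717 transcripts.

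Some calls on the whole gate were not made without these few wells. *Sox2* was read at 146, 14.2 and 0 CPM in the mural sums and was called higher than in the other gates by 1.68 (SE 0.52) on the log2 scale. Without the neural-like and microglia-like wells this difference was -1.001 and not called. *Hes5* and *Igfbp5* were called higher in the whole gate too, and without these wells *Hes5* fell below the filter on low counts and *Igfbp5* was not called. *Sox2* and *Hes5* are in the progenitor list that helped to assign the wells, so leaving these wells out had to lower both, and only *Igfbp5* lies outside the assigning lists. In mural-like wells *Sox2* was found in 11 of 194 and *Hes5* in 8.

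*Fabp7*, a fatty acid binding protein of radial glia, stayed higher in the mural gate. It was called against the other gates at 2.02 (SE 0.32) and, without the wells of other populations, at 1.44. It was found in 137 of 194 mural-like wells (70.6%), in 12% of endothelial wells and in 39.8% of neural gate wells, at median depths of 6936, 6408 and 7717 transcripts. *Mfge8*, which encodes a secreted glycoprotein, was found in 84.5% of mural-like wells and 36.9% of endothelial wells, and was called higher than in the endothelial gate at 2.16 (SE 0.28).

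The whole gate was then compared with the other gates across 9281 genes that passed edgeR's filter on low counts. Against the mean of the other 3 gates 1257 genes were higher (13.5% of those tested) and 770 lower (8.3%). Against the endothelial gate 851 were higher (9.17%) and 1068 lower (11.5%). Library totals in place of edgeR's TMM scaling moved the median gene from -0.05 to 0.10 and the first pair of counts to 1450 higher and 547 lower. It moved the second pair to 984 higher and 872 lower, so which direction held more genes against the endothelial gate depended on the scaling. Without plate 1 the 4 counts were 654, 128, 286 and 308, and without plate 2 they were 594, 145, 255 and 316.

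Within the libraries that mural and microglia cells shared, 1176 (93.6%) and 1169 (93%) of the 1257 genes called higher also had a mural level above the microglia level. The corresponding figures for the 770 genes called lower were 652 and 690. In the library shared with 4 endothelial wells, 743 of the 851 genes called higher stood above the endothelial level, but only 417 of the 1068 called lower stood below it, and 239 of those were at 0 in both. Those 4 wells held 27940 transcripts in all, against 72819 in the 10 mural wells. The wells of all these libraries are part of the sums that made the calls. Much of this agreement was therefore fixed beforehand, and it is no separate check of gate against library. The share over all tested genes was not computed.

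All 14 tested pericyte genes, with the sort gene *Pdgfrb* among them, were higher than in the other gates, with a median log2 fold change of 5.93 beside -0.05 over all genes, and 13 of 14 were higher than in the endothelial gate (median 4.48 beside -0.01), where 13.5% and 9.17% of all genes tested were higher. *Colec12*, a collectin found on perivascular cells, was the one not called, at 1.12 (SE 0.50). *Cspg4*, which encodes the proteoglycan NG2, stood at 692, 606 and 645 CPM against 7.30, 7.86 and 157 in the endothelial sums. *Mcam* was found in 53.3% of endothelial wells as well as 89.2% of mural-like wells, and its difference was 1.15 (SE 0.30). These lists were chosen with results of these data known, so the counts do not support the labels independently. The pericyte list has 16 genes. A gene high only in the mural sums could pass the filter on low counts through them. This can raise such counts beside the share over all genes, also for the lists below.

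Endothelial, microglia, macrophage and red blood cell markers were low. All 14 tested endothelial genes were lower than in the endothelial gate, beside 11.5% of all genes tested, and the junction gene *Cdh5* was at 0 in all 3 mural sums. The endothelial list includes *Pecam1* and the microglia list *Ptprc*, which encodes CD45, and the cells were sorted against both proteins, so these genes only describe the sort. The endothelial list summed to at most 24.3 transcripts per 10000 in mural-like wells (median 6.75) against a median of 95.4 in the endothelial gate. The microglia list summed to a median of 0 and at most 14.7, that of border macrophages to at most 5.53 and that of red blood cells to at most 1.23. Only 3 of the 9 red blood cell genes were in the files, and their differences were not tested. *Tek*, *Esam* and *Emcn*, which are best known from endothelium, were among 5 of the 14 called higher in the mural gate than in the mean of the other 3 gates, *Emcn* by 3.60 (SE 0.36), with *Eng* and *Ramp2*, while *Cldn5*, *Kdr* and *Cd93* were called lower. The neural progenitor list was not low, with a median of 10.4 per 10000 in mural-like wells against 6.57 in the neural gate. In the whole gate 4 of its 10 genes were called higher in both comparisons, *Sox2*, *Hes5*, *Fabp7* and *Mfge8*, beside 13.5% and 9.17% of all genes tested. As given above, without the wells of other populations *Sox2* was not called against the other gates. *Hes5* then fell below the filter on low counts.

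The genes with the largest differences from the other gates, among those whose mural sums all lay above every other sum, began with *Foxs1*, a forkhead transcription factor. It stood at 82.3, 108 and 54.9 CPM in the mural sums, at 1.04, 1.57 and 0 in the endothelial sums, and at 0 in every neural and microglia sum. Next came *Afap1l2*, with 141, 138 and 137 CPM against at most 14.2 in any other sum, and *Mir143hg*, the host transcript of 2 microRNAs known from smooth muscle. *Mir143hg* stood at 33.2, 46.1 and 27.5 CPM and at 0 in the 9 other sums. The rest were *Kcnj8*, *Heyl*, *Tbxa2r*, which encodes the thromboxane receptor, *Des*, *Lrrc32*, *Tbx2* and *Pcolce*, with log2 fold changes from 6.69 to 7.06.

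Against endothelial cells the leading genes were led by *Foxd1*, another forkhead factor, with 187, 162 and 330 CPM in the mural sums and 1.04, 0 and 0 in the endothelial ones. It rests on 279 mural transcripts and 1 endothelial transcript, a ratio of 300 with a counting interval from 53.4 to 11880. *Clstn2* followed the same course, with 205 transcripts against 2. The endothelial gate held no transcript of *Col14a1*, *Mir143hg*, *Des*, *Arhgef10l*, *Mndal*, *Dzip1l* or *Meis3*. Against 3 counts over the group *Col14a1* was at least 23.6-fold higher, *Des* at least 17.2-fold and *Meis3* at least 9.67-fold. *Meis3* and *Arhgef10l* overlapped with the neural gate, where *Meis3* stood at 26.6, 18.9 and 32.8 CPM against 22.2, 14.2 and 13.7 in mural cells.

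Of 21 transcription factors in a list of mural regulators, 15 passed the filter on low counts. *Foxs1*, for example, passed through the mural sums alone. Of the 15, 14 were higher than in the other gates (13.5% over all genes) and 9 than in the endothelial gate (9.17% over all genes). *Tbx18*, a T-box factor of mural cells and their precursors, was read at 106, 116 and 151 CPM against 3.13, 0 and 0 in endothelial cells. *Heyl* was read at 443, 448 and 549 CPM against 16.7, 1.57 and 199. *Zic1* was found in 91.2% of mural-like wells and 12.9% of endothelial wells, but also in 36.6% of neural gate wells.

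Some of these factors were shared by the vessel wall. *Foxc1* was found in 80.4% of mural-like and 59.6% of endothelial wells, and *Foxf2* in 67.5% and 65.3%, and neither was called between these gates (0.43, SE 0.25, and -0.37, SE 0.25). *Epas1*, an oxygen-sensing factor, was at 643, 840 and 714 CPM against 541, 442 and 356, with a difference of 0.49 (SE 0.30) that was not called. *Hey1* was lower than in endothelial cells, at -1.04 (SE 0.38, adjusted p = 0.04 by edgeR's quasi-likelihood test), and lost its call with library totals. *Mef2c* was not called in either comparison.

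A list of the potassium channel and of contractile signaling had 18 genes, of which 13 were tested. Of these, 11 were called higher than in the other gates and 10 than in the endothelial gate, against 13.5% and 9.17% over all genes. *Abcc9* was found in 98.5% of mural-like wells, in 7.11% of endothelial wells and in 6.5% of neural gate wells. Its mural sums were 1124, 1386 and 1263 CPM, its endothelial sums 42.7, 14.1 and 242, and its difference 4.39 (SE 0.49). *Pde3a* and *Pde5a*, which break down cyclic nucleotides, differed by 3.32 (SE 0.43) and 3.14 (SE 0.32). *Gjc1*, a gap junction gene, differed by 3.26 (SE 0.36), and *Gja4*, another, by -0.18 (SE 0.30), which was not called. *Rgs2* was the only gene of the list called lower in mural than in endothelial cells, by 2.37 (SE 0.38) on the log2 scale.

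**Figure D3:**
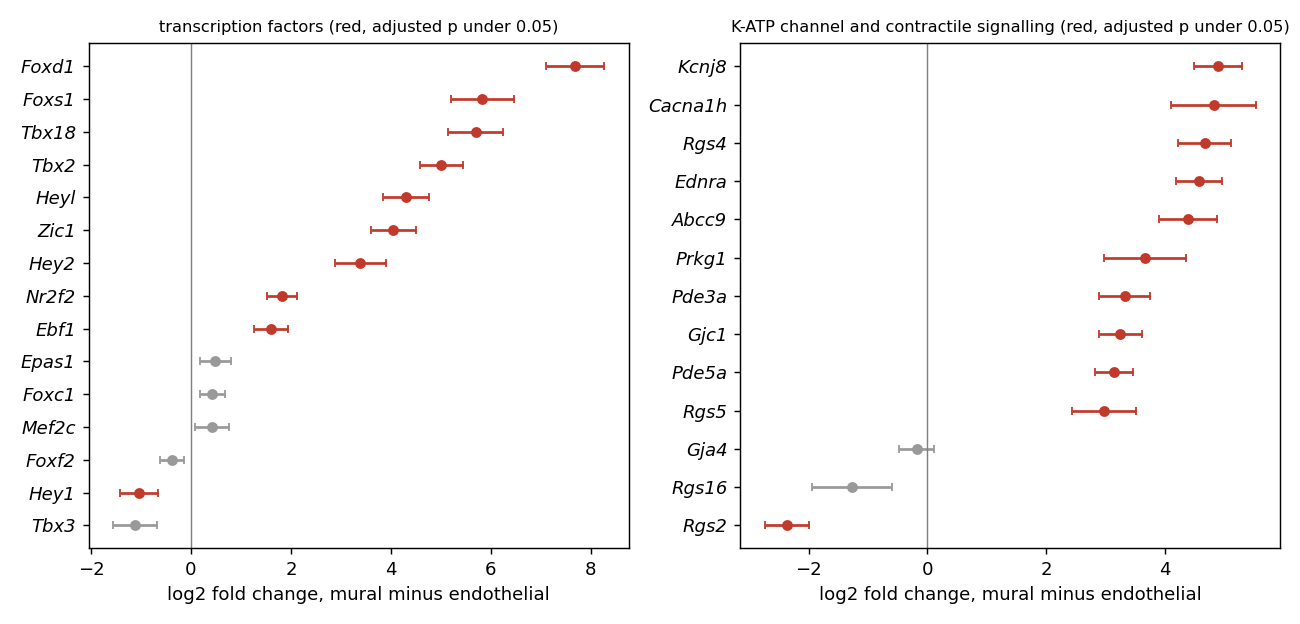
Log2 fold change of mural minus endothelial sums over 3 plates for 15 transcription factors (left) and 13 genes of the potassium channel and contractile signaling (right), with SE as bars and called genes in red. *Foxd1* stands highest on the left at 7.69, and *Hey1* on the left and *Rgs2* on the right are called lower.

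Receptors divided the mural from the endothelial cells in both directions, with 6 of 16 higher, 5 lower and 5 not called, beside 9.17% higher and 11.5% lower over all genes tested. *Ednra*, the receptor for endothelin, stood at 394, 417 and 412 CPM against 14.6, 4.71 and 99.7 in the endothelial sums. *Notch3* stood at 451, 402 and 288 against 15.6, 4.71 and 71.3. The sphingosine phosphate receptors went different ways. *S1pr3* was higher by 5.03 (SE 0.43) and *S1pr2* by 3.16 (SE 0.57), while *S1pr1* was read at 9.50, 5.91 and 13.7 CPM against 177, 229 and 71.3. Receptors for TGF-beta ligands, *Tgfbr2*, *Acvrl1* and *Eng*, were lower than in endothelial cells, by 2.58, 1.08 and 2.12 on the log2 scale, though the endothelial sum of plate 3 lay within or below the mural range in each of them and the call of *Acvrl1* was lost with library totals.

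Secreted factors followed, with 9 of 16 higher than in the endothelial gate and 4 lower, beside the same 9.17% and 11.5%. *Igf2*, a fetal growth factor, was read at 7111, 7062 and 5754 CPM against 522.2, 345.7 and 1026. *Dlk1* and the heparin-binding factors *Ptn* and *Mdk* differed by 5.12 (SE 0.45), 3.64 (SE 0.39) and 2.48 (SE 0.32). *Vegfa* and *Pdgfa*, ligands for endothelial and glial receptors, were low but higher than in endothelial cells, *Pdgfa* at 103, 81.5 and 82.4 CPM against 10.4, 1.57 and 28.5. *Tgfb2*, *Cxcl12*, *Apoe* and *Sparc* were lower than in endothelial cells.

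Basement membrane genes differed from the endothelial gate in both directions. The 17 tested genes included 14 higher than in the other gates, yet against endothelial cells 7 were higher, 5 lower and 5 not called, with a median of 0.27. Over all genes 13.5% were higher in the first comparison, and 9.17% were higher and 11.5% lower in the second. The collagen IV genes *Col4a1* and *Col4a2* differed by 0.48 (SE 0.33) and 0.27 (SE 0.32), and neither was called. *Nid1* was higher by 0.91 (SE 0.32) while its relative *Nid2* was lower by 1.57 (SE 0.29) on the log2 scale. *Col18a1* and *Hspg2*, which encode heparan sulfate proteoglycans, were lower by 3.92 (SE 0.42) and 2.80 (SE 0.40) on that scale, but on plate 3 *Col18a1* stood at 137 CPM in mural and 99.7 in endothelial cells. *Col5a1*, which encodes a fibrillar collagen, was read at 119, 156 and 96.1 CPM against 5.21, 6.29 and 28.5.

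Contractile smooth muscle genes were near 0. *Acta2*, which encodes smooth muscle actin, was found in 9 of 194 mural-like wells (4.64%, 2.14 to 8.62) and in no endothelial, microglia or neural gate well. *Tagln* was found in 9 wells too, but also in 8 of 225 endothelial wells (3.56%), which is within the counting error of the mural share. *Lmod1* was found in 9 wells and *Myh11*, the smooth muscle myosin heavy chain, in 4. *Cnn1*, *Pln* and *Actg2* were found in 0 of 194, which allows a share of up to 1.55% of wells with a transcript.

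No well carried these genes as a set. Of the 7 contractile genes named above, 168 wells held none, 22 held 1, 3 held 2 and 1 held 3. The well with the most transcripts of them had 3 of *Acta2* and 1 of *Lmod1* beside 73.7 of *Rgs5*. No cluster of mural-like wells had a gene of the smooth muscle list among its 10 leading genes. A cluster was named from a list when at least 3 of its 10 leading genes were in it. Leading genes had to be found in at least 25% of the cluster's wells. By this rule none was named smooth muscle-like at any of the clustering settings tried. A few smooth muscle wells spread among others could not have met the rule, so this does not show that they were absent.

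Other genes of the list, which non-muscle cells also use, were frequent. *Cald1*, *Mylk* and *Myl9*, which regulate or form part of the myosin machinery, were found in 193, 180 and 178 of 194 mural-like wells, against 52.9%, 20% and 9.78% of endothelial wells. *Myl9* stood at 659, 767 and 467 CPM against 30.2, 7.86 and 185, and its difference was 4.17 (SE 0.44). *Des*, the muscle intermediate filament gene desmin (chromosome 1, 75360329 to 75368579), was found in 34 wells (17.5%) and in no well of the endothelial, microglia or neural gates. *Smtn* went the other way, in 18.6% of mural-like and 44.4% of endothelial wells, and was lower by 1.95 (SE 0.36) on the log2 scale. *Tpm1* and *Csrp1* were not called between these gates.

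Among mural-like wells the smooth muscle list and the pericyte list went together, with a Spearman correlation of 0.329 across 194 wells. The pericyte list and depth gave 0.0657. The wells share 5 libraries and are no replicates, so both values only describe them.

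**Figure D4:**
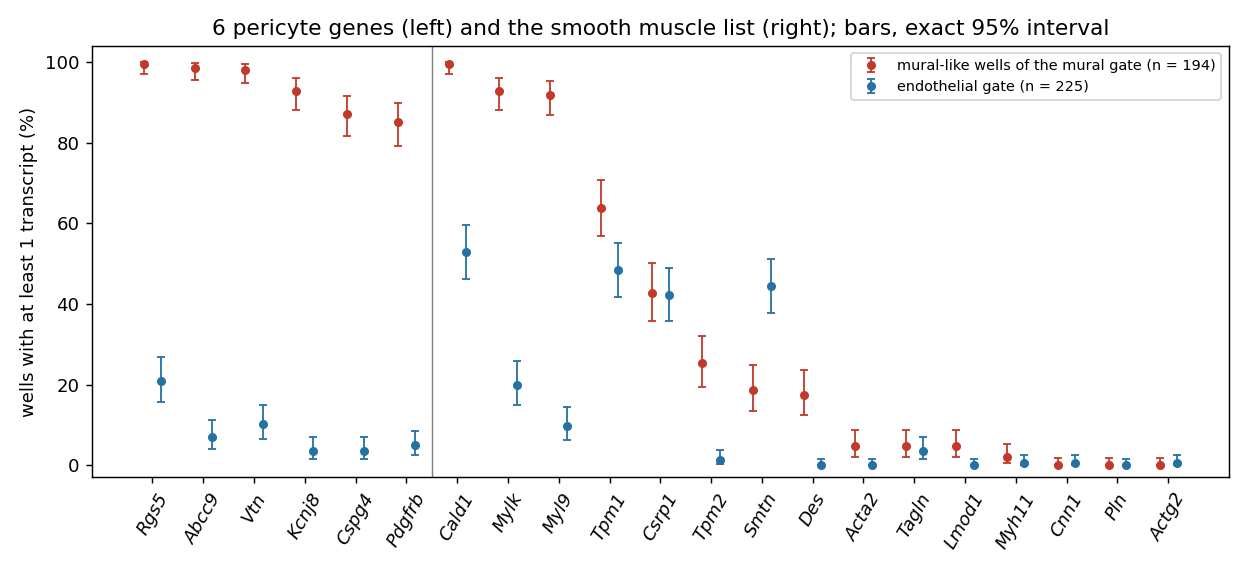
Share of wells with at least 1 transcript of 6 pericyte genes (left) and of the 15 genes of the smooth muscle list (right) in 194 mural-like and 225 endothelial gate wells, with exact 95% intervals. *Cald1*, *Mylk* and *Myl9* are found in over 90% of mural-like wells, whereas *Acta2*, *Tagln*, *Lmod1* and *Myh11* stay below 5% and *Cnn1*, *Pln* and *Actg2* at 0.

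Collagen genes often used for fibroblasts were part of the mural profile. *Col1a2* was found in 70.6% of mural-like wells, *Col3a1* in 76.3% and *Col1a1* in 14.9%, against 2.67%, 4.44% and 0.889% of endothelial wells, and 6 genes of the fibroblast list were higher than in both references, where 13.5% and 9.17% of all genes were. These 6 were the ones that passed the filter on low counts, of 12 in the list and 10 in the files. *Lamc3* and *Fbln1* of the list also had more transcripts in the mural than in the endothelial gate, 184 against 8 and 258 against 73. Other genes of the list were near 0, and *Lum* and *Slc6a13* were absent from the files. *Dcn* was found in 0 of 194 wells (up to 1.55%), *Pdgfra* in 1 and *Ogn* in 12. The list summed to between 5.09 and 283 transcripts per 10000 in mural-like wells and its part in other results was not tested.

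Part of the mural-like wells lay in clusters led by cell cycle genes. Cluster 3, with 35 wells, was led by replication genes such as *Pcna*, *Rrm2*, *Lig1* and *Mcm4*, and cluster 6, with 17 wells, by mitotic genes such as *Mki67*, *Cenpe* and *Ccnb1*. Together they made 52 of 194 wells (26.8%, exact 95% interval 20.7 to 33.6), with 24 of 81 on plate 1, 23 of 103 on plate 2 and 5 of 10 on plate 3. *Mki67*, a marker of cycling cells, was found in 62.9% of wells of cluster 3 and in all of cluster 6, and in 3.7% of cluster 1. Over all wells outside cluster 6 the share was 21.5%, and wells of clusters other than 3 and 6 held it too. The wells of clusters 3 and 6 were deeper, with medians of 10810 and 9029 transcripts against 6936 over all mural-like wells. The part of depth in these clusters was not tested.

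The number depended on how the wells were clustered. Cluster 3 had 3 genes of the S list among its 10 leading genes, the fewest that the naming rule given above allows. Cluster 6 had 7 of the G2/M list. Whether a lower number came from the rule or from wells that changed cluster was not tested. Resolution 0.5 gave the same 52 wells and 1000 variable genes gave 51, of which 49 were shared. Resolution 1.5 named only the 17 mitotic wells. A setting that changed several choices together, k-medoids on the Pearson correlation over 203 genes with *Gm10800* and mitochondrial genes left out, named none. Without plate 1, 12 wells were named, of which 10 were among the 28 wells of the main 52 still present. Without plate 2 these numbers were 35, 26 and 29, and without plate 3 they were 48, 47 and 47.

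**Figure D5:**
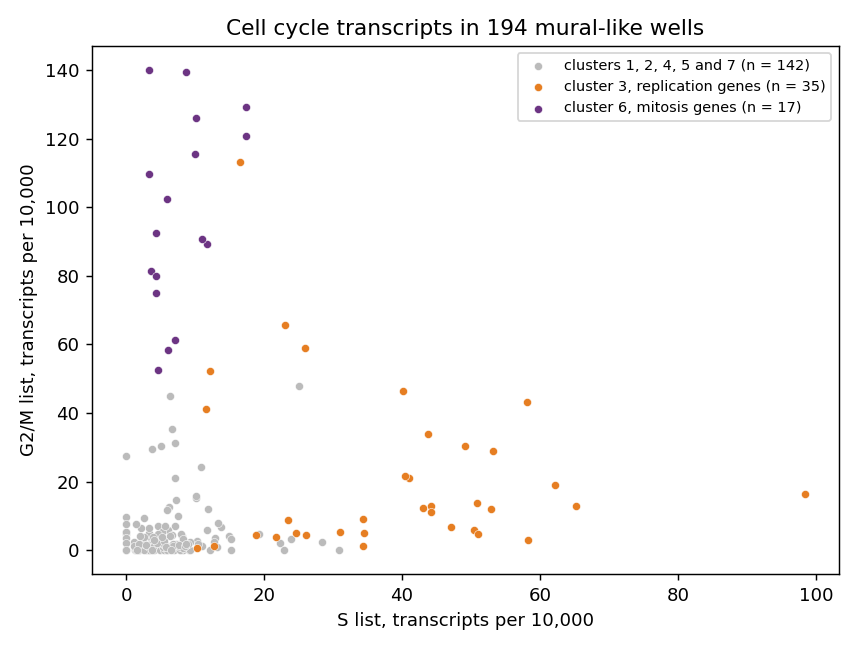
Transcripts per 10000 of the S list (horizontal) and of the G2/M list (vertical) in 194 mural-like wells, colored by cluster. The 17 wells of cluster 6 range from 52.4 to 140 on the vertical axis, and the 35 wells of cluster 3 from 10.3 to 98.3 on the horizontal axis.

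Measured over plates, the S list was higher in each mural sum than in each endothelial sum, whereas the G2/M sums of these gates overlapped. The G2/M list came to 1979, 1611 and 3392 CPM in mural sums, with a mean of 2327 ± 940 (SD, n = 3 plates), and to 1364, 2087 and 570 in endothelial sums. The S list came to 1607, 1289 and 2403 against 1180, 1098 and 655. The exact two-sided permutation tests of the 6 comparisons with the other gates gave p from 0.1 to 0.8 and adjusted p from 0.4 to 0.8, and 3 plates against 3 cannot give less than 0.1. Of 26 G2/M genes tested by edgeR 2 were called higher than in the other gates, *Ccna2* and *Ccnb2*, and of 23 S genes 1, the helicase gene *Mcm6*, beside 13.5% called higher over all genes tested.

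With every well thinned to 1500 transcripts, at least 3 G2/M transcripts were found in 40 of 194 mural-like wells (20.6%, 15.2 to 27.0), 17.8% of endothelial, 22.7% of microglia and 16.3% of neural gate wells. For the S list the shares were 22.2%, 19.1%, 39.1% and 18.7%. Before thinning the medians of the S list were 6.62, 6.21, 8.65 and 4.21 transcripts per 10000. The order of mural and microglia wells for the S list differed between plates, with 23.5% and 19.4% against 40.6% and 41.4% on plates 1 and 2 but 40% of 10 wells against 0% of 6 on plate 3. The S sums of the microglia gate were 1645, 1697 and 394 CPM, and their difference from the mural sums, 521 CPM higher in mural cells, had p = 0.6 in the exact permutation test (adjusted p = 0.72).

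Immediate early genes, which cells induce within minutes of a stimulus, were high in part of the wells. Of 15 tested, 8 were higher than in the mean of the other gates and 4 higher than in the endothelial gate, *Fos*, *Fosb*, *Egr1* and *Hspa1a*, beside 13.5% and 9.17% of all genes tested. *Fos* stood at 1260, 1181 and 1950 CPM against 316, 217 and 242, a difference of 2.27 (SE 0.40). *Hspa1a*, a heat shock gene that is induced by stress, stood at 473, 625 and 2046 against 67.8, 94.3 and 257. The library of plate 3 was highest in both. These genes respond to tissue dissociation, and the part of the preparation in these differences was not tested. *Jund* was lower than in the other gates, and *Jun*, *Junb* and *Nr4a1* were called against the mean of the other gates and not against the endothelial gate.

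The list varied widely among mural-like wells, from 0 to 329 transcripts per 10000 with a median of 56.8. The microglia gate had a higher median, 62.4, and a higher maximum, 728. In a library that both gates shared on plate 1, *Junb* stood at 323 CPM in mural and 585 in microglia wells and *Fosb* at 95.2 and 228, whereas *Fos* stood at 1373 and 379.5. In the library they shared on plate 2 *Junb* stood at 625 and 677, *Fosb* at 198 and 221 and *Fos* at 1565 and 374. A cluster of 7 wells, cluster 7, had 8 of its 10 leading genes from the list, among them *Nr4a1*, *Fos* and *Dusp1*, and held between 106 and 329. Its wells came from each plate, 3, 3 and 1.

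The other clusters differed by degree. Cluster 1, the largest with 54 wells and none of plate 3, was led by the matrix and matrix protease genes *Mmp9*, *Mmp11*, *Mfap2*, *Bgn* and *Col1a2* and had a median of 184 pericyte transcripts per 10000. Cluster 5, with 19 wells, was led by *Nnat* and by ribosomal protein genes. In clusters 2 and 4, of 43 and 19 wells, predicted genes such as *Gm10800* and *Gm21833* led, and such genes took a median of 17.6% and 12.9% of transcripts there, with 12.01% in cluster 6, 11.2% in cluster 7 and from 5.14% to 7.32% in clusters 1, 3 and 5. Of the 43 wells of cluster 2, 28 came from 1 library of plate 2.

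*Rgs5* was found in 94.7% of wells of cluster 4 and in all wells of the other 6 clusters. The pericyte list had medians from 127 to 184 per 10000 across the 7 clusters, and the smooth muscle list from 33.1 to 46.3. These values describe wells that were clustered with the same genes.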

How the data were processed

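Cells were taken from 11 libraries of plates 1 to 3. The authors deposited, for each well, expected counts, an estimate of transcripts that allows for a molecular identifier having been used by several molecules. Per the submitters' processing notes BWA 0.6.2-r126 and mm10 were among the tools and builds of the series; their settings are not given in the sources used here. No spike-in was present. Population and gate came from the deposited well annotation. Wells with more than 1500 transcripts were kept and no doublet caller was run.

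Counts were summed per plate and gate (12 sums), rounded to whole numbers, and compared with edgeR 4.0.16 (TMM, its filter on low counts, quasi-likelihood test, two-sided, Benjamini-Hochberg adjusted p under 0.05 over 9281 genes) in R 4.3.3. CPM are scaled to such a sum. The lone values were compared by exact permutation. Mural-like wells were clustered with scanpy 1.11.5 and igraph 0.11.9 (Leiden, resolution 1, 2000 variable genes, 30 principal components), in Python 3.11.15 with numpy 2.4.6, scipy 1.17.1 and pandas 2.3.3; plots used matplotlib 3.10.9. The edgeR step was tested on simulated data.

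The 95% intervals of shares are exact (Clopper-Pearson), and at 0 the limit of 3 counts is given. Named genes were 6 markers, the 10 largest called differences with mural sums above every sum compared, the 10 leading genes of each cluster and members of the lists. Of the list genes 13 were absent from the files. Gene positions are those of GENCODE M21 on mm10. Members and lists were chosen with earlier results of these data known. Alternatives were DESeq2 1.42.0, other scaling, filters, folds, wells, clustering settings, a plate block and each plate left out. The result of 1 gene is not reported here. Bulk libraries and *Mof* knockout cells were not used here.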

Additional observations from a re-analysis of the deposited data

Results flagged for a closer look

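*Rgs5* transcripts appeared under barcodes that no well used. In the 6 libraries without mural gate wells, 91 of 576 unused barcodes (15.8%, exact 95% interval 12.9 to 19.0) held *Rgs5*, with 105 transcripts in all, or 1822 CPM of the transcripts under those barcodes. In the 5 libraries with mural wells the level was 2602 CPM, and in mural gate wells left out for depth 3123 CPM. Unused barcodes held a median of 95.02 transcripts. Such transcripts were not particular to *Rgs5*. In each of the 6 libraries without mural gate wells, *Igf2* stood higher than *Rgs5* under unused barcodes, from 1625 to 6027 CPM. The wells of these 6 libraries were not free of *Rgs5*, which stood there at 36.6 to 2607.5 CPM.

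The gate for medium or low PDGFRb, which no comparison used, held mural-like wells. Of its 23 kept wells 8 were mural-like and 15 neural-like. The 8 wells had between 63.8 and 180 pericyte transcripts per 10000, within the range of the mural gate, and a median depth of 3344 transcripts. In the 15 neural-like wells the progenitor list exceeded the neuron list in 12.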

How the results depend on the processing

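Of 82 alternatives computed, 60 were labelled the same as the main result, 22 moved and 0 reversed. For counts the same means within a set fold of the main count, and 0 smooth muscle-like wells at each setting are included. The G2/M excess over the endothelial gate was also labelled the same, though it fell from 987 to 69.6 CPM without plate 3. Each count was labelled alone, so a change in which direction held more genes is not counted. With a difference over 10-fold as a further condition the counts were 275 higher and 66 lower against the other gates, and 204 higher and 209 lower against the endothelial gate; with DESeq2 they were 781, 270, 356 and 438. Leaving out 1 plate at a time gave 594 to 1704, 128 to 822, 255 to 1189 and 308 to 1372. Without the wells of other populations in the mural gate the counts were 1388, 824, 894 and 1033, and with such wells left out of all gates, chosen after seeing the data, 1442, 806, 992 and 1111. Sums of the same number come from 1 labelled plate, and the kept share on plate 3 was low in 3 gates (20.3% neural, 15.6% mural and 10.2% endothelial). Their deviations from the gate means had r from -0.034 to 0.096 over 18 pairs, 0 of them over 0.1. With the plate as a block the counts were 1324, 922, 938 and 1175, of which 1249, 768, 842 and 1065 were shared with the fit without it.

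Leaving out 1 plate, the kept wells ran from 105 to 200, the neural-like wells from 2 to 15 and the cycling wells from 12 to 48. Cycling wells numbered 17 at resolution 1.5 and 0 with k-medoids on the Pearson correlation over 203 genes, which also left out *Gm10800* and mitochondrial genes. Leaving out predicted Gm genes, added after seeing the data, gave 52. Smooth muscle-like wells were 0 at each setting, under a naming rule that a few scattered wells could not have met. The cause of these changes was not tested. The excess of G2/M transcripts over the endothelial gate ran from 69.6 to 1718 CPM and that of S transcripts from 309 to 1087 when 1 plate was left out. The number of wells limits rare genes, since 0 of 194 wells allows up to 1.55% of wells with a transcript; this does not bound the cells that express the gene, and plate 3 holds few wells.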

Other observations

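*Xist*, transcribed from the inactive X chromosome of females, was found in 141 of 210 mural wells and 393 of 476 wells of the other gates. Transcripts of the Y-linked genes *Ddx3y*, *Eif2s3y*, *Kdm5d* or *Uty* were found in 3 mural wells, each of which also held *Xist*, and in 18 wells of the other gates.

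Predicted Gm genes took a median of 8.73% of transcripts in the mural gate, with a range from 2.94% to 79.8% between wells. The medians were 11.1% in the endothelial gate, 8.32% in the neural gate and 7.76% in the microglia gate. The highest mural well was on plate 3, whose 10 wells had a median of 18.2%.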
